A study of Homo sapiens with 6 samples.

Results

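The regions described here are the 757 chromatin immunoprecipitation sequencing (ChIP-seq) peaks that lay on unplaced and random contigs, out of 149848 peaks in 4 deposited lists. They were chosen by name alone, as every peak whose sequence name contains the character _ or begins with chrUn. The lists come from H69M, a line derived from H69, and from H69 itself (NCI-H69), an established small cell lung cancer line that is the parent. In each line an H3K27me3 library and an H3K27ac library were made, and the lists show 607 contig peaks for H69M H3K27me3, 65 for H69 H3K27me3, 59 for H69M H3K27ac and 26 for H69 H3K27ac. Each of these 4 groups is 1 library, so no difference between the lines has a replicate check and no test between them was possible. How H69M was derived is given in the labels only by reference to earlier work, and whether it is 1 clone is not given in the sources used here.

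The hg19 assembly keeps some sequence outside its numbered chromosomes. A name with the ending random marks a contig that was assigned to a chromosome but not placed within it, and a name beginning with chrUn marks one that was not assigned to any chromosome. Such contigs are rich in duplicated and satellite sequence of the kind found beside centromeres and on the short arms of acrocentric chromosomes, and one of them, chrUn_gl000220, is known for holding ribosomal DNA. Polycomb repressive complex 2 writes H3K27me3, which is known for marking silenced genes in wide domains. H3K27ac marks active promoters and enhancers.

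The peaks fell on 50 contigs, of which 32 were unplaced and 18 were assigned to a chromosome. No contig of an alternative haplotype was listed. H3K27me3 without H3K27ac in either line was listed on 32 contigs, H3K27ac without H3K27me3 on 7, and both marks on 11. Sequencing depth cannot be read from peak positions and scores, and the inputs (1 per line) were not used here. How reads that match several places were mapped, how many copies of each contig the cells carry, and how depth differed are not known, and their part in the results was not tested.

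H3K27me3 peaks were far more numerous on contigs in H69M than in H69. They made up 1.57% of the list in H69M (95% exact binomial interval 1.45 to 1.70) and 0.299% in H69 (0.231 to 0.381), a ratio of the percents of 5.26 (4.06 to 6.90). These intervals reflect counting error alone, and neighbouring peaks are not independent of each other. The peaks covered 359 kb in H69M and 48.8 kb in H69, or 4.30% of the list's whole covered length in H69M and 0.985% in H69. On unplaced contigs the ratio of the percents was 7.74 (5.27 to 11.8; 385 peaks in H69M and 28 in H69), and on assigned contigs it was 3.38 (2.38 to 4.92; 222 peaks in H69M and 37 in H69).

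The surplus was spread over many contigs. In H69M 42 contigs held H3K27me3, against 20 in H69, and 19 held it in both lines. Of the 43 contigs with H3K27me3 in either line, 41 had more peaks in H69M, 1 had equal numbers and 1 had more in H69. The whole H3K27me3 list was also longer in H69M, with 38575 peaks against 21711 in H69, and these counts do not allow for that. On 38 of the 43 (88.4%) the covered length in H69M was at least 2-fold that in H69, counting contigs without an H69 peak, whereas 47.1% of the 100 kb bins of chromosomes 1 to 22 and X with a peak met that rule. The opposite rule, H69 at least 2-fold above H69M, was met by 1 contig and by 26.6% of the bins. Contigs and bins differ in length and in the number of peaks held, so these shares are not like for like. A contig or bin with peaks in only 1 line meets a rule by that alone. The contigs named from here on are those with 10 or more peaks in a list, with both marks in a line or with more peaks in H69, and those of the 5 highest scoring contig peaks of each list. chrUn_gl000220 was named for its ribosomal DNA, and other contigs and single sites were picked after their values were seen.

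**Figure D1:**
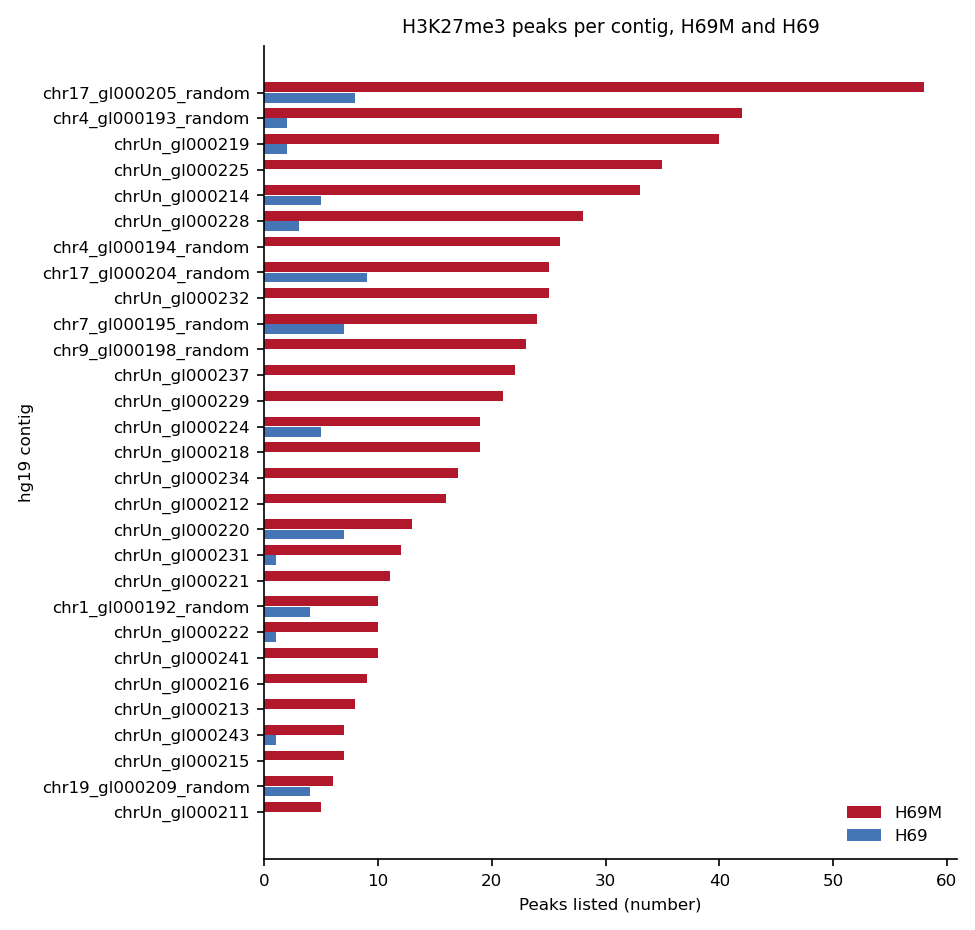
Number of H3K27me3 peaks (x axis) on each contig with 5 or more peaks in a list (y axis), with H69M in red above H69 in blue. chr17_gl000205_random leads with 58 peaks in H69M and 8 in H69, and every contig shown has a longer red bar than blue bar.

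chr17_gl000205_random, assigned to chromosome 17, held the most H3K27me3 peaks, with 58 over 45.2 kb in H69M and 8 over 4.71 kb in H69. All 8 H69 peaks overlapped H69M peaks, and its highest H69M score was 2057 (116326 to 119067). The score is the authors' and ranks peaks within a list. It starts at 50 in these lists and piles up at 3100.

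chr4_gl000193_random showed the highest H3K27me3 scores of all contigs. It held 42 peaks over 37.0 kb in H69M and 2 peaks over 1.92 kb in H69, a covered length ratio of 19.3. In H69M its peaks at 76961 to 89452 and 89467 to 93204 both had a score of 3100, which no peak of that list exceeds. In H69 the peaks at 86179 to 87547 (score 69.6) and at 88589 to 89137 (score 59.7) both lay inside the first of them. The contig thus carried a listed H3K27me3 site in both lines that differed in score and extent. The other contig of chromosome 4, chr4_gl000194_random, had 26 H3K27me3 peaks in H69M, with a highest score of 319, and none in H69.

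On chrUn_gl000224 the lines shared one wide region. A single H69M peak of 19470 bp, from 9 to 19478 (score 1998), was the widest contig peak of any list, and it overlapped all 5 H69 peaks of the contig. The highest scoring H69 contig peak, at 15851 to 19409 (score 703), was one of these 5, as were the peaks at 3282 to 8598 (326) and 9374 to 13453 (264). The remaining peaks among the top 5 of H69 lay on chr17_gl000205_random, at 109872 to 110794 (319) and 116786 to 117876 (268). The covered length on chrUn_gl000224 was 27.3 kb in H69M and 17.4 kb in H69, a ratio of 1.56. This was far below the ratio on the contigs above that had H69 peaks. These ratios do not allow for the whole lists. On chromosomes the H3K27me3 peaks covered 7958 kb in H69M and 4908 kb in H69. The ratio of 1.56 thus shows no H69M surplus beyond that on chromosomes.

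Some contigs with H3K27me3 peaks in H69M had none in H69. There were 23 such contigs, with 1 to 35 peaks each, holding 268 of the 607 H69M peaks. chrUn_gl000225 was covered over the greatest length of all contigs in H69M, by 35 peaks over 48.4 kb with a highest score of 1347 (77961 to 83436). Among the contigs without an H69 peak it was followed by chr9_gl000198_random with 23 peaks over 15.5 kb, chrUn_gl000232 with 25 over 15.1 kb, chrUn_gl000234 with 17 over 10.5 kb, chrUn_gl000237 with 22 over 10.4 kb and chrUn_gl000229 with 21 over 10.01 kb. Their highest scores lay between 253 on chrUn_gl000229 and 671 on chrUn_gl000234. chrUn_gl000212, chrUn_gl000218, chrUn_gl000221 and chrUn_gl000241 held 16, 19, 11 and 10 peaks in H69M, with highest scores of 596, 307, 231 and 791. None of these contigs was listed for H3K27me3 in H69, which says only that no peak there passed the authors' threshold.

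On other contigs a site with a high score in H69M had an H69 peak with a lower listed score. On chrUn_gl000231, where 12 peaks covered 11.6 kb in H69M and 1 peak covered 0.314 kb in H69, the scores at that site were 1812 in H69M and 57.0 in H69. On chrUn_gl000243, with 7 peaks in H69M and 1 in H69, they were 2007 in H69M and 121.8 in H69, among the 5 highest contig scores of H69M. On chrUn_gl000222 the scores were 1399 in H69M and 83.7 in H69, on chrUn_gl000228 they were 1187 in H69M and 87.6 in H69, and on chrUn_gl000214 they were 1319 in H69M and 221 in H69. The highest scoring H69 peaks of chrUn_gl000214 and chrUn_gl000243 were above the H69 contig median of 70.7, by more than those of chrUn_gl000222 and chrUn_gl000228. Another H69 peak at the chrUn_gl000214 site scored 62.7, below that median. chrUn_gl000219 had 40 peaks over 15.3 kb in H69M and 2 over 0.516 kb in H69, a covered length ratio of 29.7, and both of its H69 peaks were near the threshold, with a highest score of 54.6.

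Of the 65 H69 H3K27me3 contig peaks, 18 (27.7%) had no H69M counterpart, against 67.4% of the H69 peaks on chromosomes 1 to 22 and X. On chrUn_gl000214 the H69 peaks at 116681 to 119270 (score 125.5), 122432 to 126267 (60.6) and 134524 to 136926 (76.3) had none, and the last H69M peak of that contig ended at 115947. The only H3K27me3 peak of chr11_gl000202_random was in H69, at 15825 to 16067 with a score of 89.5. chr17_gl000204_random held 25 peaks over 5.57 kb in H69M, against 9 over 2.30 kb in H69, and 7 of its 9 H69 peaks were shared. Its highest scores, 620 in H69M and 261 in H69, lay at different sites. At the first of these the highest overlapping H69 score was 177, and at the second the highest overlapping H69M score was 259.

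**Figure D2:**
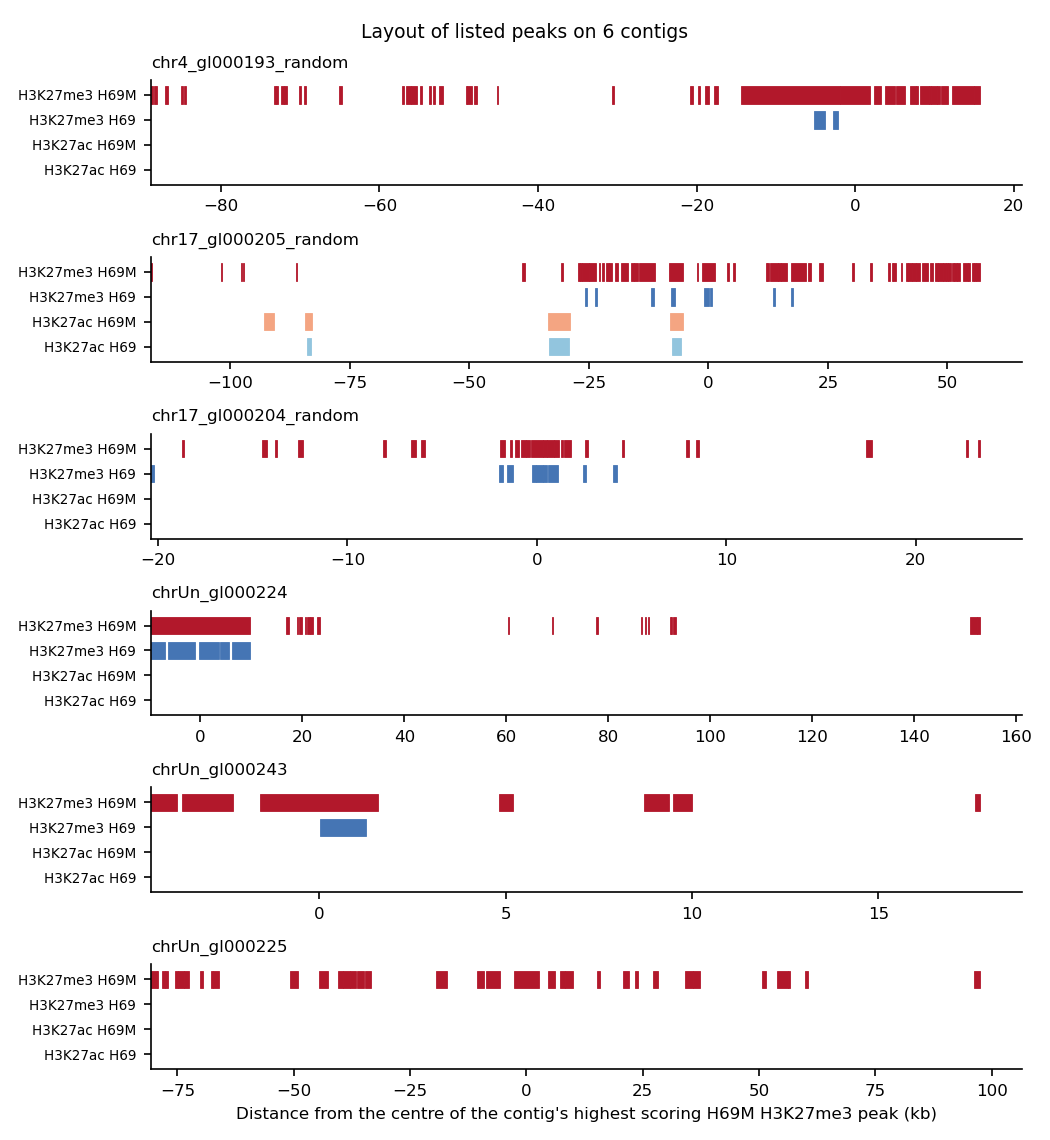
Position of each listed peak on 6 contigs, as distance in kb from the centre of the contig's highest scoring H69M H3K27me3 peak (x axis), with 1 row per mark and line and the peaks drawn to scale as blocks. On chr4_gl000193_random the 2 H69 peaks lie inside an H69M block of 12492 bp, on chrUn_gl000224 the 5 H69 peaks lie under 1 H69M peak, and chrUn_gl000225 has peaks in the H69M H3K27me3 row only.

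H3K27me3 peaks on contigs were wider than those on chromosomes in both lines. The median width was 359 bp on contigs and 156 bp on chromosomes 1 to 22 and X in H69M, and 314 bp on contigs and 185 bp on chromosomes in H69. Peaks of 1000 bp or more made up 13.5% of the H69M contig peaks, against 0.985% on the chromosomes, and 18.5% of the H69 contig peaks, against 0.610%. Neighbouring contig peaks also stood closer together, with a median gap of 890 bp on contigs and 2041.5 bp on chromosomes in H69M, and 3645 bp on contigs and 5595 bp on chromosomes in H69. Gaps were taken within each sequence, and a contig is far shorter than a chromosome, so these medians are not like for like. When H69M peaks within 500 bp were joined, 373 blocks were left, 11 of them longer than 5 kb. The longest ran over 20.6 kb from 76961 to 97558 on chr4_gl000193_random, and the block with the most peaks, 14, ran over 11.4 kb from 158971 to 170360 on chr17_gl000205_random with no score above 138. In H69 joining left 55 blocks, 2 of them longer than 5 kb, both on chrUn_gl000224.

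The contigs took a larger part of the H69M H3K27me3 list at higher scores. They held 1.19% of the peaks with a score under 100 (1.08 to 1.32), 2.78% from 100 to under 300 (2.38 to 3.23), 5.33% from 300 to under 1000 (3.97 to 6.99) and 9.93% at 1000 or more (14 of 141 peaks, 5.54 to 16.1). In H69 the percents were 0.246 (0.180 to 0.328), 0.585 (0.335 to 0.949) and 1.22 (0.252 to 3.52), and at 1000 or more 0 of 27 peaks lay on a contig (0 to 12.8), where the limit set by 3 counts is 11.1%. Most contig peaks were still weak. A score of 100 or more was reached by 38.1% of the contig peaks in H69M (231 peaks, 34.2 to 42.1) and 29.2% in H69 (19 peaks, 18.6 to 41.8), against 18.4% of the whole list in H69M and 13.8% in H69. Of the 100 highest scoring H3K27me3 peaks, 11 in H69M and 1 in H69 lay on contigs. Of the highest 20, 2 in H69M did, both on chr4_gl000193_random.

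**Figure D3:**
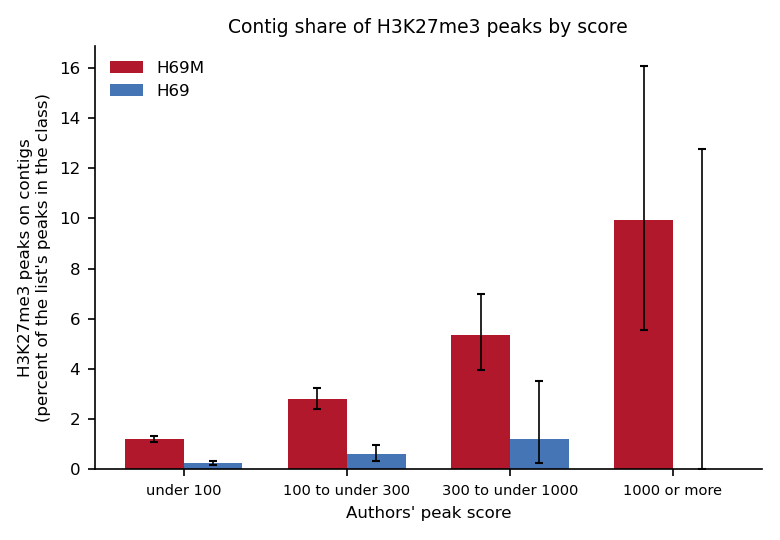
Percent of the H3K27me3 peaks of each score class that lay on contigs (y axis) by class of the authors' score (x axis), with H69M in red left of H69 in blue and exact binomial 95% intervals as error bars. The H69M percent goes from 1.19 in the lowest class to 9.93 in the highest, and the H69 bar of the highest class is at 0 of 27 peaks.

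Sharing between the lines ran in opposite senses for the H3K27me3 peaks of each line. Of the H69M contig peaks 6.43% overlapped an H69 peak by 1 bp or more (39 of 607, 4.61 to 8.68), against 18.7% of the whole H69M list. Of the H69 contig peaks 72.3% overlapped an H69M peak (47 of 65, 59.8 to 82.7), against 32.7% of the whole H69 list. At these 47 peaks the listed score of the overlapping H69M peak was higher in 43 and lower in 4. The 47 met 35 different H69M peaks, taking the highest scoring one for each, and 1 of them stood for 5 H69 peaks. Depth was not allowed for, so these pairs describe the lists as deposited. The H3K27me3 ground listed on contigs in H69 was thus mostly listed in H69M too, beside a larger number of H69M peaks without a counterpart. Among H69M peaks of 300 to under 1000, 24.5% were shared on contigs (12 of 49, 13.3 to 38.9) and 81.9% on chromosomes, so the low sharing of H69M contig peaks did not lie in the weak peaks alone.

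**Figure D4:**
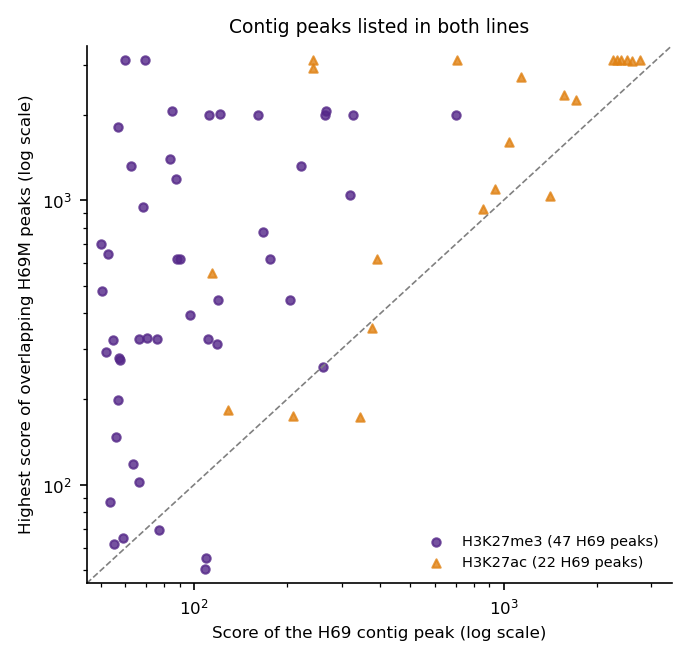
Highest score of the overlapping H69M peaks (y axis, log scale) against the score of each H69 contig peak with a counterpart (x axis, log scale), with circles for 47 H3K27me3 peaks, triangles for 22 H3K27ac peaks and a dashed line of equal scores. Above the line lie 43 of the circles and 18 of the triangles, and up to 5 circles at the same height belong to 1 H69M peak. On chromosomes 1 to 22 and X the H69M score was higher at 66.9% of shared H69 H3K27me3 peaks. For H3K27ac it was higher there at 68.9%.

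H3K27ac showed a smaller difference on contigs. Its peaks made up 0.115% of the list in H69M (59 peaks, 0.0877 to 0.149) and 0.0678% in H69 (26 peaks, 0.0443 to 0.0994), a ratio of 1.70 (1.05 to 2.81). This interval was wide enough to include 1 under each of 5 other settings, where the ratio was between 1.19 and 1.60. The covered length was 96.8 kb in H69M and 40.8 kb in H69. Of the 18 contigs with H3K27ac, 17 had it in H69M and 12 in H69, where the whole lists held 51225 and 38337 peaks. The covered length was at least 2-fold greater in H69M on 10 of the 18 (55.6%), against 41.1% of the 100 kb bins of the chromosomes, and at least 2-fold greater in H69 on 1, against 8.63% of the bins. That contig was chrUn_gl000222, with no peak in H69M and 1 weak peak in H69 (94632 to 95127, score 69.2). Here too contigs and bins are not like for like.

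The width of H3K27ac peaks differed less between contigs and chromosomes than that of H3K27me3 peaks did. The median H3K27ac width was 1174 bp on contigs and 1149 bp on chromosomes in H69M, and 1322.5 bp on contigs and 966 bp on chromosomes in H69. A score of 100 or more was reached by 64.4% of the contig peaks in H69M (50.9 to 76.4) and by 88.5% in H69 (69.8 to 97.6), against 72.3% of the whole list in H69M and 69.6% in H69. Of the H69M contig peaks 37.3% overlapped an H69 peak (22 of 59, 25.04 to 50.9), against 51.6% of the list, and of the H69 contig peaks 84.6% overlapped an H69M peak (22 of 26, 65.1 to 95.6), against 77.5%. In H69 all 11 contig peaks that reached a score of 1000 had an H69M counterpart. So did 99.4% of such H69 peaks on chromosomes, so this was not particular to contigs.

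The strongest H3K27ac sites on assigned contigs were listed in both lines. Over all contigs 10 H69M peaks had the score of 3100 and so could not be ranked among themselves. In H69 the 5 highest scores, 2761, 2605, 2500, 2390 and 2324, lay on chr7_gl000195_random, chr9_gl000201_random, chr1_gl000191_random, again chr7_gl000195_random, and chr17_gl000205_random, and each of these peaks had an H69M counterpart. chr7_gl000195_random held 6 peaks over 14.9 kb in H69M and 3 over 5.87 kb in H69, and the site with the highest H69 contig score, at 137566 to 138899, scored 3100 in H69M and 2761 in H69. The peak at 84089 to 88720 on chr17_gl000205_random scored 3100 in H69M and 2324 in H69. chr1_gl000192_random had the most H3K27ac peaks, 12 over 10.3 kb in H69M and 4 over 3.95 kb in H69. Their highest scores were 806 in H69M and 391 in H69, at different sites. Its H3K27me3 peaks numbered 10 in H69M and 4 in H69, with highest scores of 275 in H69M and 66.2 in H69, also at different sites. chr9_gl000201_random had 1 wide peak in each line (3.29 kb in H69M and 3.85 kb in H69), and chrUn_gl000223 had 4 peaks in each (5.54 kb in H69M and 5.48 kb in H69), all of them shared. The last pair of contigs therefore differed little between the lines in covered length, with no allowance for the longer H69M list.

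**Figure D5:**
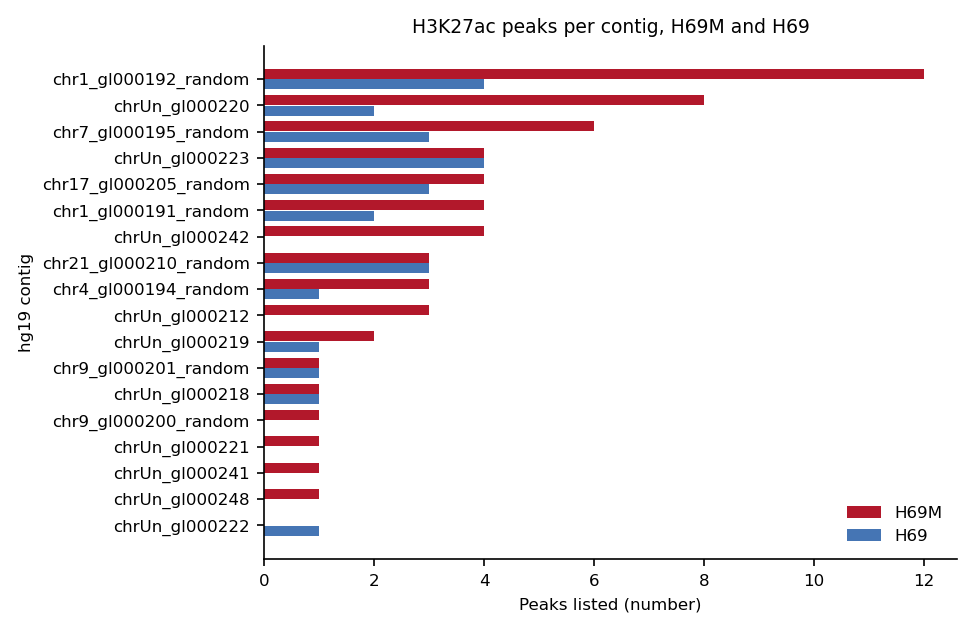
Number of H3K27ac peaks (x axis) on each of the 18 contigs with any (y axis), with H69M in red above H69 in blue. chr1_gl000192_random has 12 peaks in H69M and 4 in H69, chrUn_gl000223 has 4 in each, and chrUn_gl000222 has a peak in H69 only.

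chrUn_gl000220, the contig known for ribosomal DNA, the repeated genes of ribosomal RNA, carried the widest H3K27ac peak of any contig. In H69M 8 peaks covered 28.03 kb, and in H69 2 peaks covered 3.26 kb, a ratio of 8.60. The H69M peaks at 9149 to 19837 (10689 bp), 50271 to 54275 and 92565 to 97945 all had a score of 3100 and no H69 counterpart. The sites at 6169 to 8586 and 30046 to 32023 also scored 3100 in H69M and were listed in H69, with scores of 708 and 242. H3K27me3 on the same contig had 13 peaks over 9.82 kb in H69M and 7 over 3.30 kb in H69, and all 7 H69 peaks were shared. Its highest H3K27me3 scores were 445 in H69M (95684 to 96945) and 204 in H69 (95975 to 96676), at the same place. No peak of any list lay beyond 97945 on this contig. Without it, the covered length ratio of H3K27ac over all contigs, as a percent of each list, was 1.15 in place of 1.49.

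H3K27ac peaks on contigs overlapped H3K27me3 more often than those of the whole list did. Of the H69M H3K27ac contig peaks 28.8% overlapped an H69M H3K27me3 peak (17 of 59, 17.8 to 42.1), against 1.59% of the whole list. In H69 15.4% did (4 of 26, 4.36 to 34.9), against 0.816% of the whole list. Seen from H3K27me3, 4.12% of the H69M contig peaks overlapped H3K27ac (25 of 607, 2.68 to 6.02), against 3.50% of the list, and 6.15% in H69 (4 of 65, 1.70 to 15.01), against 1.89%. The share stood farther above that of the list when seen from H3K27ac. Seen from H3K27me3, the intervals of both lines include the share of the list. Of the H3K27ac contig peaks, 41 of 59 in H69M and 16 of 26 in H69 lay on contigs with H3K27me3 in either line. The part that the close spacing of H3K27me3 peaks on contigs has in this overlap was not tested.

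The 17 H69M sites with both marks lay on 9 contigs and the 4 H69 sites on 3. The 3 sites of chrUn_gl000220 in H69M all had an H3K27ac score of 3100, with H3K27me3 scores of 328, 312 and 445. On chr17_gl000205_random the site at 109635 to 112311 had an H3K27ac score of 2909 and an H3K27me3 score of 1047 in H69M. In H69 the overlapping peaks there scored 242 for H3K27ac and 319 for H3K27me3, so both marks were listed in both lines. On chr7_gl000195_random 4 H69M H3K27ac peaks overlapped H3K27me3 peaks with scores of 52.1 to 86.01, close to the threshold. On chrUn_gl000241 and chrUn_gl000212 the H3K27me3 score was the higher of the pair (791 against an H3K27ac score of 108, and 596 against 247). A list from a mixed population does not show whether both marks sat on the same molecule, and the copies of a repeated sequence cannot be told apart.

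Assigned contigs were set beside the placed part of their own chromosome. For chromosome 4 the H3K27me3 covered length ratio of H69M to H69 was 22.8 on the contigs (43.7 kb in H69M and 1.92 kb in H69) and 3.49 on the chromosome. It was 7.15 on contigs against 1.83 for chromosome 17, 7.68 on contigs against 1.28 for chromosome 7, and 3.50 on contigs against 2.19 for chromosome 1. It was 2.00 on contigs against 1.27 for chromosome 19, and 1.97 on contigs against 2.05 for chromosome 8. The contig ratio was thus the higher in 5 of the 6 chromosomes whose contigs had H3K27me3 in both lines, chromosome 8 being the exception with 2 contig peaks in H69M and 1 in H69. The contigs of chromosomes 1, 4 and 19 also held few H69 peaks, 4, 2 and 4. Left out of the 6 were chromosome 9, with contig peaks in H69M only (15.7 kb), and chromosome 11, with 1 in H69 only (0.243 kb). For H3K27ac the contig ratio was the higher in 3 of 6 chromosomes.

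Placed peaks within 2 Mb of the largest stretch of each chromosome without a peak in any list, called flanks here, were set beside those on contigs. How alike the flanks and the contigs are was not measured. The H3K27me3 ratio of percents was 5.26 on contigs and 3.01 in these flanks (2.74 to 3.31; 2806 flank peaks in H69M and 524 in H69). The H3K27ac ratio was 1.70 on contigs and 1.01 in the flanks (0.927 to 1.11). The median H3K27me3 width in H69M was 359 bp on contigs and 179 bp in the flanks. In H69 it was 314 bp on contigs and 190 bp in the flanks. The median H3K27me3 gap in H69M was 890 bp on contigs and 1494 bp in the flanks. In H69 this gap was 3645 bp on contigs and 5922 bp in the flanks. Of the H69M peaks 6.43% were shared on contigs and 8.34% in the flanks (234 of 2806, 7.34 to 9.42), so low sharing of H69M peaks was not particular to contigs. Of the H69 peaks 72.3% were shared on contigs and 44.1% in the flanks. At shared H69 H3K27me3 peaks the H69M score was higher in 91.5% on contigs and 75.3% in the flanks. H3K27ac peaks that overlapped H3K27me3 made up 28.8% on contigs and 4.14% in the flanks in H69M. In H69 they made up 15.4% on contigs and 1.64% in the flanks. With 1 library per group these differences were not tested.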

How the data were processed

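ChIP-seq of H3K27me3 and H3K27ac in H69M and H69 gave 4 peak lists, 1 for each library, and groups were taken from the sample titles. Bowtie2, SAMtools 0.1.19 and the build hg19 are named in the submitters' processing notes. Per the deposited files, each peak has a position, a score and a name that mentions MACS. Which MACS version and threshold were used, whether the input served, and how reads with several matches were treated was not given in the sources used here. The deposited score has no stated definition and was used to rank and filter peaks. Scores of overlapping peaks of both lines are also set side by side as listed, with no allowance for depth.

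Peaks were read with pandas 2.3.3 in Python 3.11.15, and starts were written 1-based. Covered length is the union of a list's peaks. Peaks overlap where they share at least 1 bp. Exact 95% intervals of shares (Clopper-Pearson) come from SciPy 1.17.1, and ratios of shares carry the conditional exact binomial interval. The overlap and interval steps were tested on simulated data. No p-value was computed, since each group holds 1 library. Library depth is unknown. Alternatives covered the score threshold, equal list lengths, single contigs left out, merged peaks and the overlap rule. The members, contigs to be named and settings were chosen with earlier results of these data known. Peaks on chromosome Y were left out of the values for chromosomes.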

Additional observations from a re-analysis of the deposited data

How the results depend on the processing

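The direction of the H69M to H69 ratios held under all alternatives that were run. The H3K27me3 share ratio was between 4.47 (peaks within 500 bp merged) and 6.46 (equal numbers of peaks), and the H3K27me3 covered length ratio, 4.36 as reported, was 3.28 with scores of 100 or more. The H3K27ac share ratio of 1.70 was between 1.19 (scores of 100 or more) and 1.60, with intervals that include 1. The percent of H69M H3K27me3 contig peaks overlapped by H69 was 3.29 when 50% of the peak had to be covered and 9.39 when a peak within 500 bp sufficed. With scores of 100 or more in both lists, 84.2% of the H69 H3K27me3 peaks, 57.9% of the H69M H3K27ac peaks and 95.7% of the H69 H3K27ac peaks were overlapped, and equal numbers of peaks also gave 57.9% for H69M H3K27ac. With scores of 100 or more the median scores were 158 (H69M) and 167 (H69) for H3K27me3 and 982 for H69M H3K27ac, and the median widths were 675 bp, 831 bp and 1668.5 bp, since weak peaks are left out. Merging gave a median width of 472 bp for H69M H3K27me3. The alternative without haplotype contigs was not run, as none was listed. No paired analysis was possible because each group holds 1 library. Depth is unknown, and a list of peaks does not show whether a missing peak is a missing mark.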

Other observations

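Some contig peaks began near the first base of their contig. In the H69M H3K27me3 list 4 peaks began within the first 100 bp, on chr7_gl000195_random (93 to 1513, score 326), chrUn_gl000224 (9 to 19478, score 1998), chrUn_gl000225 (1 to 1364, score 199) and chrUn_gl000229 (2 to 229, score 66.8). In the H69 H3K27me3 list 1 did, on chrUn_gl000224 (15 to 2729, score 161). In the H69M H3K27ac list 1 did, on chr21_gl000210_random (88 to 679, score 52.7), and in the H69 H3K27ac list none did.

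On chr19_gl000209_random H3K27me3 was listed in both lines at different places, with 6 peaks in H69M and 4 in H69 and no overlap between them. The first 3 H69 peaks began at 53507, 62415 and 71324, which are 8908 and 8909 bp apart, and their scores were 74.7, 55.8 and 64.8. The 6 H69M peaks showed no such spacing, with distances between neighbouring starts of 104 to 63404 bp. This contig was picked after its values were seen.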
